A study of Rattus norvegicus with 7 samples.

Results

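Regulators of G protein signalling (RGS proteins) were followed through 7 arrays of NRK-52E, a line of epithelial cells from rat kidney. The set held 10 genes, Rgs2, Rgs3, Rgs4, Rgs5, Rgs7, Rgs10, Rgs12, Rgs14, Rgs16 and Rgs19, of 14217 genes named on the array. They were chosen by symbol, with measured values in view: Rgs5 was higher with both siRNAs against Adamts16, and the family leaned upward with siRNA 2600. Those comparisons are therefore given as a description without a test. All probe sets annotated to the 10 genes were taken, 15 of 31099 on the array.

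The arrays hold RNA of cells left for 48 h with siRNA duplex at 100 pmol per ml and Lipofectamine, in medium that held 10% serum, and every group, the control included, received an siRNA and the lipid. Cultures given siRNA 3488 are on 2 arrays, cultures given siRNA 2600 on 2, and cultures given a scrambled siRNA on 3, each from an independent culture of a single cell line per the series design. No untransfected cells are among the 7 arrays, and precision is limited by how few arrays there are. The antisense strands are shown because the siRNA duplex is what defines each group, with the seed (bases 2 to 8) in capitals and the dTdT overhang left out. The 3 seeds differ from each other.

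siRNA 3488: tTTCCGGAgacgtacttct

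siRNA 2600: tTGCGCACagaaatatagg

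scrambled control: aTTACCGAgcacattggagg

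RGS proteins end the signal that a G protein-coupled receptor starts. They bind the active, GTP-loaded alpha subunit of a heterotrimeric G protein and speed up its GTP hydrolysis, so that the alpha subunit rebinds the beta and gamma subunits and falls silent. The R4 subfamily (here Rgs2, Rgs3, Rgs4, Rgs5 and Rgs16) acts on alpha subunits of the Gi and Gq classes, with Rgs2 preferring Gq. Rgs7 belongs to the R7 subfamily, which pairs with the atypical beta subunit Gnb5. Rgs10, Rgs12 and Rgs14 form the R12 subfamily and Rgs19 belongs to the RZ subfamily. In the vessel wall Rgs2 and Rgs5 limit the response to vasoconstrictors, and Rgs5 is widely used as a marker of pericytes.

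Across all arrays the median signal lay between 126 and 139.6 arbitrary units. Knockdown could not be read from the arrays: the Adamts16 probe set gave 12.1 and 40.4 in siRNA 3488 cells, 21.4 and 2.42 in siRNA 2600 cells, and 8.68, 7.18 and 18.9 in control cells, under the level needed for testing. As a sign of RNA quality, the beta-actin ratio (3′ over 5′ probe sets) stood at 1.96 and 1.94 in siRNA 3488 cells, 1.83 and 1.81 in siRNA 2600 cells, and 1.74 to 1.79 in control cells. The 18 probe sets of transcripts spiked in at hybridisation had a median log2 change of 0.52 under siRNA 3488 and 0.03 under siRNA 2600. Of 10 markers of kidney tubule epithelium on the array, 3 reached the level for testing (Krt8, Lrp2 and Aqp1), while Cdh1, Cdh2, Cdh16, Epcam, Krt18, Pax2 and Pax8 did not.

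Rgs5 had the largest difference from the control among the tested probe sets of the family with either siRNA, but under siRNA 3488 its lead over Rgs12 1378680_at rests on single arrays. Rgs12 had the larger log2 change without scrambled control replicate 1 (0.82, against 0.69 for Rgs5), without scrambled control replicate 2 (0.93, against 0.84) and without siRNA 3488 replicate 2 (0.87, against 0.82). Without scrambled control replicate 3, Rgs12 fell to 0.53, against 0.89 for Rgs5. Rgs5 has 1 probe set, 1369957_at. It read 177.6 and 174.3 in siRNA 3488 cells, 296.6 and 281.8 in siRNA 2600 cells, and 85.8, 105.7 and 112 in control cells. The groups did not overlap: both siRNA 2600 arrays lay above both siRNA 3488 arrays, which lay above all 3 control arrays. The mean was 176 ± 2.28 (SD, n = 2) for siRNA 3488, 289.2 ± 10.4 (n = 2) for siRNA 2600 and 101.1 ± 13.7 (n = 3) for the control. The log2 change was 0.81 ± 0.18 (SE) under siRNA 3488, a fold of 1.75, and 1.52 ± 0.18 under siRNA 2600, a fold of 2.88. With both siRNAs pooled against the control it was 1.17 ± 0.23, where the gap between the siRNAs stays in the error. By size the siRNA 2600 change was rank 6 from the top of 18625 tested probe sets and the siRNA 3488 change rank 235. Averaged over arrays it lay at percentile 52.6 of all signals, and each control array was above 68.2, the signal at which testing began.

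**Figure D1:**
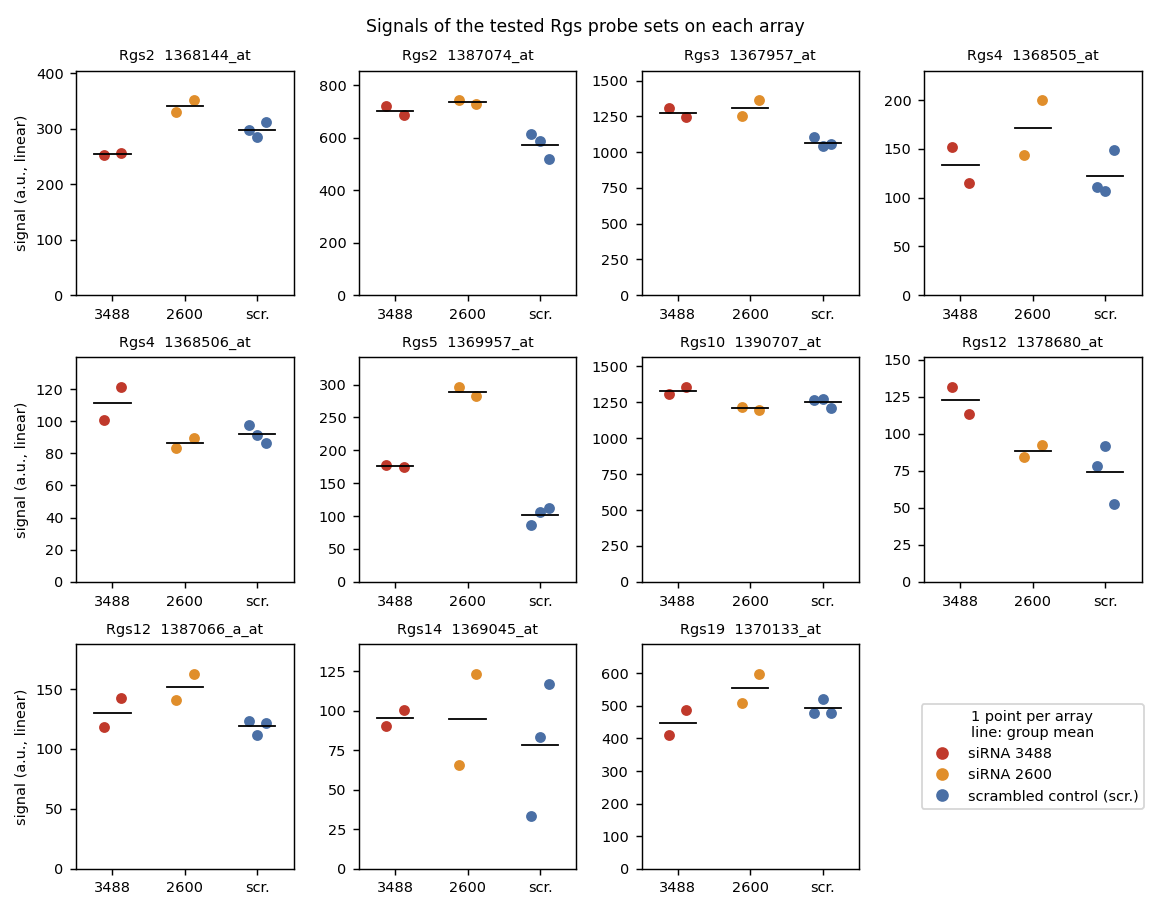
Signal in arbitrary units on a linear axis from 0 for each of the 11 tested Rgs probe sets, 1 point per array and a line at each group mean, for siRNA 3488, siRNA 2600 and the scrambled control (scr.). Rgs5 shows 3 separate levels, with means of 176 for siRNA 3488, 289.2 for siRNA 2600 and 101.1 for the control, while Rgs14 and Rgs4 1368505_at have arrays of all groups at similar signals.

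Markers of pericytes and smooth muscle were read beside Rgs5. All 10 listed genes were on the array, none at 0, and 6 were tested. Of these, 0 were called by limma at an adjusted p under 0.05 with either siRNA (1 at an unadjusted p under 0.05 with each). Of all 18625 tested probe sets 15.6% were called with siRNA 3488 and 1.03% with siRNA 2600 (5934 and 2831 passed unadjusted). Counts over 6 genes are too few to set apart from those shares. The summed signal of the 10 listed genes was 1854 to 1911 in siRNA 3488 cells, 1771 to 1897 in siRNA 2600 cells, and 1653 to 1791 in control cells. The siRNA 3488 arrays thus lay above the control and the siRNA 2600 arrays overlapped it. Acta2 made up much of that sum, and its members differed in direction, none passing the test. Under siRNA 3488 Des was at 0.54 and Myh11 at -0.66, while under siRNA 2600 Myh11 was at 0.94, with both arrays above the control, and Abcc9 at -0.43, with both below. Cnn1, Cspg4, Kcnj8 and Mcam were under the level for testing. Of the fibroblast markers, Col1a1 and Col1a2 encode the chains of type I collagen. Both were higher on all 4 siRNA arrays than on any control array, which held for 6.66% of all tested probe sets. Col3a1 and Mfap5 overlapped the control under siRNA 2600, with log2 changes of 0.03 and 0.11. Dcn, Lum, Pdgfra and Thy1 were under the level for testing. Col1a2 read 402.6 and 360.6 in siRNA 3488 cells, 436.4 and 474.6 in siRNA 2600 cells, and 339.7, 302.7 and 287.8 in control cells, the same order of groups as Rgs5. Neither of its changes passed (limma adjusted p = 0.121 under siRNA 3488 and 0.0657 under siRNA 2600). The beta-actin ratio was higher on all 4 siRNA arrays, and the marker sum on both siRNA 3488 arrays, than on any control array, as Rgs5 was. The part of these measures and of the marker genes in the Rgs5 values was not tested. In bulk RNA more RNA per cell and more cells of a type cannot be told apart.

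Among the other R4 genes, Rgs3 was higher with both siRNAs by a small amount. This gene encodes a long RGS protein that acts on Gi and Gq alpha subunits. Its bright probe set 1367957_at read 1307 and 1244 in siRNA 3488 cells, 1251 and 1365 in siRNA 2600 cells, and 1102, 1040 and 1059 in control cells. All 4 siRNA arrays lay above all 3 control arrays, and the siRNA groups overlapped each other. The siRNA 3488 change of this gene was not named in the rule. It shares its control arrays with the siRNA 2600 comparison that was, so its adjusted p is not free of the choice. The log2 change under siRNA 3488 was 0.26 ± 0.07 (limma adjusted p = 0.0425). It no longer passed with any of the 3 control arrays or either siRNA 3488 array left out (limma adjusted p = 0.0889 to 0.153), without the filter on signal (0.0605), without an intensity trend (0.0997) or with the replicate number as a block (0.0905). Over all alternatives its limma adjusted p was 0.0186 to 0.153. With siRNA 2600 the log2 change was 0.29 ± 0.07. The other Rgs3 probe sets, 1374528_at (5.11 to 21.0 over the 7 arrays) and 1376803_at (11.6 to 68.1), were too dim to be tested.

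Rgs2, which encodes the Gq-preferring member, gave opposite directions on its 2 probe sets under siRNA 3488. On 1387074_at the signals were 720.8 and 685.2 in siRNA 3488 cells, 744.7 and 730.5 in siRNA 2600 cells, and 613.2, 589.6 and 518.4 in control cells. Here every siRNA array was above every control array. The log2 change was 0.30 ± 0.10 under siRNA 3488 (limma adjusted p = 0.0636) and 0.37 ± 0.10 under siRNA 2600. The siRNA 3488 value did not pass as deposited, but passed after quantile normalization (limma adjusted p = 0.0401), cyclic loess (0.0280) and median centring (0.0378), in a range of 0.0280 to 0.200 over all alternatives. On 1368144_at the signals were 251.9 and 255.5 in siRNA 3488 cells, 330.1 and 352.3 in siRNA 2600 cells, and 298.1, 286 and 312.1 in control cells. There the siRNA 3488 arrays were below all control arrays and the siRNA 2600 arrays above them. The log2 changes were -0.23 ± 0.12 under siRNA 3488 (limma adjusted p = 0.210) and 0.19 ± 0.12 under siRNA 2600. The direction for Rgs2 under siRNA 3488 therefore depends on the probe set, and neither direction passed on the signals as deposited.

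Rgs4, a Gi and Gq regulator best known in brain and heart, also differed between its probe sets. On 1368505_at it read 151.9 and 115.2 in siRNA 3488 cells, 143.5 and 200.1 in siRNA 2600 cells, and 110.4, 106.2 and 149 in control cells. On 1368506_at it read 100.9 and 121.4 in siRNA 3488 cells, 83.1 and 89.8 in siRNA 2600 cells, and 97.4, 91.5 and 86.5 in control cells. On the first the groups overlapped, with the highest array in siRNA 2600, and on the second only the siRNA 3488 arrays were clear of the control. The siRNA 3488 log2 changes were 0.14 ± 0.24 and 0.27 ± 0.23 (limma adjusted p = 0.744 and 0.461), and those under siRNA 2600 were 0.49 ± 0.24 and -0.09 ± 0.23. Without siRNA 2600 replicate 2 the 0.49 became 0.25. Rgs16, an inducible R4 gene, was under the level for testing. It read 29.0 and 36.3 in siRNA 3488 cells, 12 and 10 in siRNA 2600 cells, and 6.98, 5.52 and 41.3 in control cells. The highest and the lowest of these 7 signals were both control arrays.

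Of the R12 genes, Rgs12, whose long protein carries a GoLoco motif besides its RGS domain, had a probe set among the larger differences under siRNA 3488. On 1378680_at it read 131.8 and 113.6 in siRNA 3488 cells, 84.3 and 92.4 in siRNA 2600 cells, and 78.5, 91.5 and 52.5 in control cells. Both siRNA 3488 arrays were above all others, while siRNA 2600 overlapped the control. The siRNA 3488 log2 change of 0.76 ± 0.29 did not pass (limma adjusted p = 0.103), and the siRNA 2600 value was 0.29 ± 0.29. Without scrambled control replicate 3, which at 52.5 lay under the 68.2 at which testing began, they became 0.53 and 0.06. Without scrambled control replicate 2 they became 0.93 and 0.46. The other Rgs12 probe set, 1387066_a_at, read 118.5 and 142.4 in siRNA 3488 cells, 140.9 and 162.9 in siRNA 2600 cells, and 123, 111.8 and 122.1 in control cells. On this probe set it was siRNA 2600 that was clear of the control, at 0.35 ± 0.20, and siRNA 3488 that overlapped it, at 0.13 ± 0.20 (limma adjusted p = 0.698). Each siRNA thus separated from the control on a different Rgs12 probe set.

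Rgs10, a small Gi-directed member, spanned a narrow range of signals. It read 1305 and 1357 in siRNA 3488 cells, 1220 and 1193 in siRNA 2600 cells, and 1265, 1274 and 1211 in control cells. The siRNA 3488 arrays were just above the control arrays (log2 change 0.09 ± 0.07, limma adjusted p = 0.394), and siRNA 2600 was at -0.05 ± 0.07. Rgs14, a scaffold with RGS, Ras-binding and GoLoco regions, had the largest standard error among the tested probe sets of the family. It read 90.3 and 100.3 in siRNA 3488 cells, 65.8 and 123.4 in siRNA 2600 cells, and 33.2, 83.6 and 117.1 in control cells. Its log2 changes of 0.47 ± 0.49 (limma adjusted p = 0.549) under siRNA 3488 and 0.39 ± 0.49 under siRNA 2600 were smaller than their standard errors. Both turned negative without scrambled control replicate 1, to -0.06 under siRNA 3488 and -0.14 under siRNA 2600, and the siRNA 2600 value also without siRNA 2600 replicate 2 (-0.06).

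Rgs19, also called GAIP, is the RZ member and acts on Gi alpha subunits. It read 409.7 and 488.1 in siRNA 3488 cells, 508.2 and 598.9 in siRNA 2600 cells, and 476.7, 522.1 and 478.9 in control cells. The groups overlapped, with log2 changes of -0.14 ± 0.12 (limma adjusted p = 0.456) under siRNA 3488 and 0.16 ± 0.12 under siRNA 2600. Both siRNA 2600 arrays were above both siRNA 3488 arrays. Rgs7, the only R7 member of the set, was too dim to be tested. It read 45.6 and 28.7 in siRNA 3488 cells, 41.1 and 54.2 in siRNA 2600 cells, and 36.1, 40.3 and 33.3 in control cells, so the siRNA 2600 arrays lay above the control and the siRNA 3488 arrays on either side of it.

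**Figure D2:**
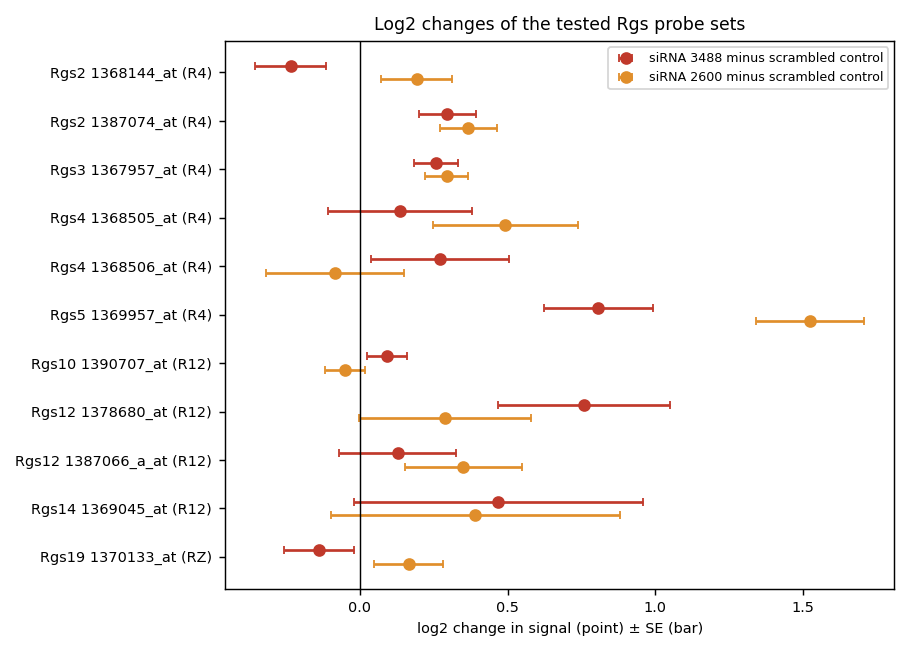
Log2 change in signal (point) with its standard error (bar) for siRNA 3488 and siRNA 2600 against the scrambled control, for the 11 tested Rgs probe sets ordered by subfamily. Rgs5 lies farthest to the right with both siRNAs (0.81 for siRNA 3488 and 1.52 for siRNA 2600), and the 2 Rgs2 probe sets lie on opposite sides of 0 under siRNA 3488 (-0.23 and 0.30).

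Of the 15 probe sets, 11 (8 genes) passed the filter on signal, which kept the upper 60% by mean log2 signal over all arrays. With siRNA 2600, 9 of the 11 had a log2 change above 0, with a median of 0.29, beside a median of -0.02 over all probe sets tested. Both arrays were above all 3 control arrays for 5 of the 11 and below them for 0, where 14.4% and 19.6% of all tested probe sets were. This comparison took part in the choice, so nothing is read from the count. Over all probe sets 1.03% were called under siRNA 2600. With both siRNAs pooled 0.145% were called, and 3 member probe sets (Rgs2 1387074_at, Rgs3 1367957_at and Rgs5) had all 4 siRNA arrays above the control and 0 below, where 6.66% and 11.0% of all did. The choice used Rgs5 with both siRNAs and the family with siRNA 2600, so nothing is read from this count either.

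With siRNA 3488 the rule used only Rgs5. The other 10 tested probe sets, of 7 genes, had a median log2 change of 0.20, with 8 above 0, beside a median of -0.06 over all. They share the control arrays with the siRNA 2600 comparison, which took part in the choice. Of these 10, 1 was called (Rgs3), where 15.6% of all tested probe sets were called, 6.89% higher and 8.74% lower. After median centring the calls over all probe sets were 1728 higher and 576 lower, in place of 1283 and 1628. Both siRNA 3488 arrays were above all control arrays for 5 of the 10 and below for 1, where 19.2% and 31.1% of all were. A share of 1 call in 10 is near the background of 15.6%. The values of Rgs2, Rgs4 and Rgs12, with 2 probe sets each, are not independent of each other within a gene.

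The 2 siRNAs were also compared within the family. Set side by side, siRNA 3488 arrays were both below siRNA 2600 arrays for Rgs5, Rgs19 and both Rgs2 probe sets, with log2 differences of -0.72, -0.30, -0.43 (1368144_at) and -0.07 (1387074_at). They were both above for Rgs4 1368506_at (0.36), Rgs12 1378680_at (0.47), Rgs10 (0.14) and the dim Rgs16 (1.57). The other member probe sets overlapped between the siRNAs. How many of all probe sets separate in this way was not counted, so nothing is read from the number of members that did. Since siRNA 2600 values took part in the choice, these differences are given without a test.

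Rgs5 lies between Nuf2 and Rgs4 in the RefSeq gene order of rat assembly GRCr8. Nuf2, which encodes a subunit of the Ndc80 kinetochore complex, read 6948 and 7279 in siRNA 3488 cells, 8536 and 7195 in siRNA 2600 cells, and 4349, 4777 and 3989 in control cells. All 4 siRNA arrays were above the control arrays, with log2 changes of 0.71 ± 0.09 for siRNA 3488 and 0.85 ± 0.09 for siRNA 2600. On the other side of Rgs5, the Rgs4 probe sets overlapped between siRNAs and control as described above, apart from 1368506_at under siRNA 3488. Nuf2 was looked up after its values were known.

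The start regions of the 3 genes with a probe set higher on all 4 siRNA arrays are shown for comparison, each from 250 bases before to 50 after the start given by RefSeq (build GRCr8). All 10 genes matched an entry. Capitals mark a TATA box (TATAAA) or the core of the cAMP response element (TGACG, on either strand).

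Rgs5, chr13:84380827-84381126 (+ strand): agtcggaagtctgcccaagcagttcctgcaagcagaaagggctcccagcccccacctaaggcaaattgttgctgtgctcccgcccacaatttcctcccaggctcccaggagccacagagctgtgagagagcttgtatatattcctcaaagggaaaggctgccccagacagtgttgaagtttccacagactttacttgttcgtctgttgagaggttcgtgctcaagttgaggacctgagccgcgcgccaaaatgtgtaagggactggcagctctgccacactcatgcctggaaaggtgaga

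Rgs3, chr5:81093801-81094100 (+ strand): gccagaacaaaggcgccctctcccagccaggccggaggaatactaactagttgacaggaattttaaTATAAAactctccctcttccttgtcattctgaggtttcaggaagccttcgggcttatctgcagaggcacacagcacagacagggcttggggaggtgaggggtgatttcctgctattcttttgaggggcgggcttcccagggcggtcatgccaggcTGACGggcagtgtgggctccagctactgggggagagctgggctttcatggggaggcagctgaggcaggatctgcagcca

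Rgs2, chr13:58352617-58352916 (- strand): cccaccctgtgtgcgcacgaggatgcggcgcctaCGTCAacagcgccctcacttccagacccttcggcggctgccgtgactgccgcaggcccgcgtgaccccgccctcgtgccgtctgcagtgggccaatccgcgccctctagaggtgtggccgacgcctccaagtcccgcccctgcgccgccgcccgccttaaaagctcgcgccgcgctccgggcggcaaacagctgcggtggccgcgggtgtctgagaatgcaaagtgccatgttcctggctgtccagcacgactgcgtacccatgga

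The 6 motifs were picked after the promoter sequences and the members' values had been seen. Both strands were searched, and overlaps between motifs were kept. TATAAA was found in 2 of the 10 members (Rgs3 and Rgs4) and in 14.2% of 33469 windows of the same length. TGACG was found in 3 (Rgs2, Rgs3 and Rgs4), against 21.2% of all windows, and the AP-1 site TGACTCA in 1 (Rgs12), against 4.63%. The E-box CANNTG was in 7 members and 72.1% of all windows, the GC box GGGCGG in 7 and 33.1%, and the CArG box in 0 and 1.64%. The Rgs5 window held 1 GC box and no match to the other 5 motifs. A match describes letters in the window, and its use in these cells was not measured.

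The probe sets whose pattern over the 7 arrays was most like that of Rgs5 were picked by correlation with it. Their shared order of groups follows from that choice, and their changes were small. Of 13975 compared, the 6 with the highest Pearson correlation of log2 signal were Pmm1 (0.994), Pigt (0.990), Farsb (0.987), Hmgb3 (0.982), Slc35a5 (0.981) and Ppih (0.978), over n = 7 arrays that share their groups and scaling. Pmm1 encodes a phosphomannomutase, Pigt a subunit of the GPI transamidase and Farsb a subunit of phenylalanyl-tRNA synthetase. Hmgb3 encodes a high mobility group protein, Slc35a5 a member of the nucleotide sugar transporter family and Ppih a spliceosomal cyclophilin. Ppih, the one with the largest change, read 445.6 and 476.2 in siRNA 3488 cells, 537.9 and 563.2 in siRNA 2600 cells, and 371.1, 373.8 and 406.4 in control cells. Its log2 change was 0.26 for siRNA 3488 and 0.52 for siRNA 2600. The other 5 had 0.10 to 0.17 under siRNA 3488 and 0.15 to 0.29 under siRNA 2600. Within the family, the correlation with Rgs5 over the same arrays was 0.854 for Rgs3, 0.422 for Rgs14, 0.351 for Rgs19 and -0.252 for Rgs10. For genes with 2 tested probe sets it depended on the probe set: 0.822 and 0.350 for Rgs2 (1387074_at and 1368144_at), 0.686 and -0.146 for Rgs4 (1368505_at and 1368506_at), and 0.772 and 0.359 for Rgs12 (1387066_a_at and 1378680_at).

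Other genes of G protein signalling were read from 7 lists, 67 tested genes of 105 on the array. With siRNA 3488, 7 rose and 3 fell at an adjusted p under 0.05 in limma, with a median of 0.01 over the 67. This is 10 of 67, beside the 15.6% called among all tested probe sets. With siRNA 2600, 0 of 67 were called (6 at an unadjusted limma p under 0.05), with a median of -0.01. Of all 18625 tested probe sets 1.03% were called there, and 2831 passed unadjusted. With both siRNAs pooled 0 were called (8 unadjusted), with a median of 0.00137. Over all probe sets 0.145% were called in the pooled fit, and 3310 passed unadjusted. Counts of 0 are near these shares. Leaving out siRNA 2600 replicate 1, the pooled comparison called 2 of the 67, Gpsm2 and Snx14, and 1304 of all 18625 tested probe sets. Whether the siRNAs differ in these genes was not tested.

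The alpha subunits are the direct substrates of RGS proteins. Of 9 tested, 2 rose under siRNA 3488 and 0 fell. Among all tested probe sets 6.89% were called higher and 8.74% lower, and single lists hold too few genes to set apart from those shares. Gnas, which encodes the stimulatory alpha subunit, averaged 13251 ± 614 (n = 2) under siRNA 3488 and 9684 ± 398 (n = 3) with the control, and rose by 0.45 ± 0.06 (limma adjusted p = 0.00345). Gnas encodes Gs, a class that most RGS proteins do not act on. Gnai2, which encodes an inhibitory alpha subunit, rose by 0.33 ± 0.10 (limma adjusted p = 0.0439). Of 12 beta and gamma subunit genes, 2 rose and 0 fell: Gng5 by 0.34 ± 0.08 (limma adjusted p = 0.0166) and Gnb1 by 0.33 ± 0.09 (limma adjusted p = 0.0391). Other probe sets of these genes ran from 0.04 for Gng5 and 0.05 for Gnb1, neither passing, to 2.67 for Gnb1, which passed.

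Of 10 other genes with an RGS-type domain, 2 fell under siRNA 3488 and 0 rose. Akap10, an anchor for protein kinase A, averaged 924.3 ± 46.4 under siRNA 3488 (n = 2) and 1361 ± 252 with the control (n = 3), and fell by 0.54 on the log2 scale (limma adjusted p = 0.0228). Snx14, a sorting nexin gene, averaged 801.8 ± 23.8 under siRNA 3488 (n = 2) and 1054 ± 56.9 with the control (n = 3), and fell by 0.39 on the log2 scale (limma adjusted p = 0.0116). The classical Rgs genes of this list, Rgs1, Rgs6, Rgs17, Rgs18 and Rgs22, had no probe set bright enough to be tested, while Rgs8 and Rgs9 were tested and not called. Of 6 receptor kinase and arrestin genes, the beta-arrestin gene Arrb1 fell by 0.27 on the log2 scale (limma adjusted p = 0.0492) and 0 rose. Of 14 effector genes, Prkaca, which encodes a catalytic subunit of protein kinase A, rose by 0.47 ± 0.12 (limma adjusted p = 0.0255) and 0 fell.

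Of 10 other modulators, Gpsm2, a GoLoco protein gene, rose by 0.38 ± 0.09 under siRNA 3488 (limma adjusted p = 0.0244) and 0 fell. Of 6 receptors for vasoactive ligands that were bright enough, F2r, which encodes the thrombin receptor PAR1, rose by 0.23 ± 0.07 (limma adjusted p = 0.0399) and 0 fell. Of the fibroblast markers, 3 of 4 tested rose under siRNA 3488 (Col1a1, Col3a1 and Mfap5), where 6.89% of all tested probe sets were called higher. The summed signal of that list was 50829 to 56404 in siRNA 3488 cells, 39363 to 43404 in siRNA 2600 cells, and 37465 to 40373 in control cells. The siRNA 3488 arrays were thus above all others in that sum, and its part in these calls was not tested. Of the leukocyte list 1 gene was tested, Cd68, which rose by 0.67 under siRNA 3488 (limma adjusted p = 0.0141), and of the endothelial list 1 was tested, and it was not called.

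The pathway calls under siRNA 3488 depend on the scaling and on single arrays. After median centring 7 rose and 0 fell, after cyclic loess 4 and 3, and after quantile normalization 3 and 4. Akap10, Gnai2, Gpsm2, Prkaca and Snx14 were called after both cyclic loess and quantile normalization, and F2r, Gnb1, Gng5 and Arrb1 after neither. Each of the 7 rises as reported was under 0.52, the median log2 change of the spiked-in probe sets under siRNA 3488. The part of that shift in these calls was not tested. The count of 10 was 2 without scrambled control replicate 1, 1 without scrambled control replicate 2 and 5 without scrambled control replicate 3. Calls over all 18625 tested probe sets fell too, from 2911 to 980, 1335 and 1748 in the same order. The smaller pathway counts are therefore not particular to these genes. Gnas was called in each of those leave-one-out fits, and not after quantile normalization.

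**Figure D3:**
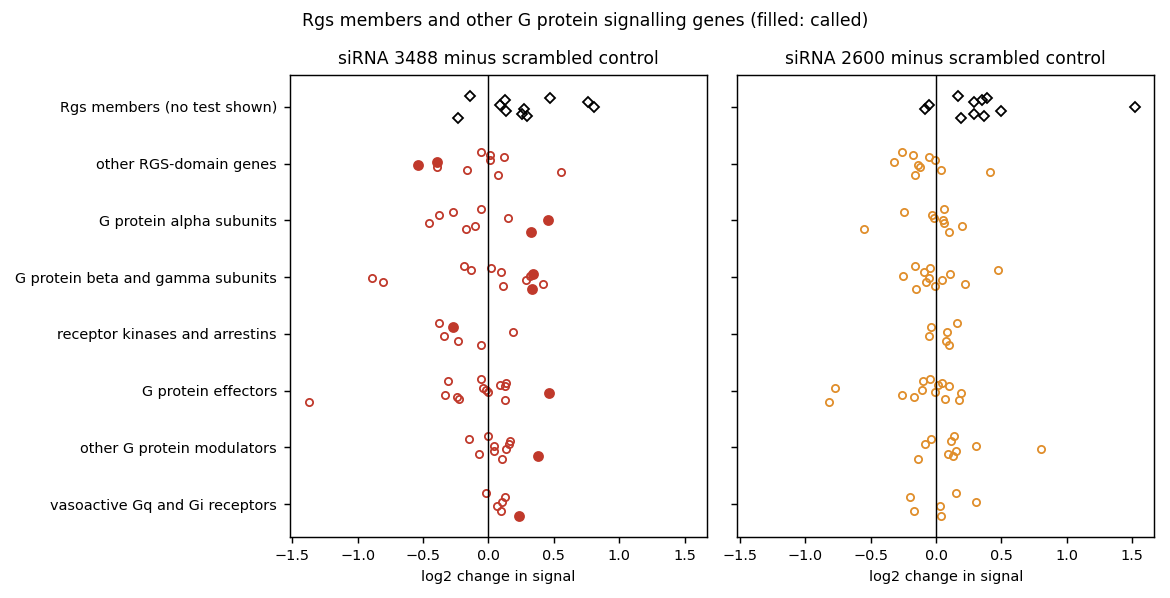
Log2 change in signal under siRNA 3488 (left) and siRNA 2600 (right) against the scrambled control, 1 point per gene of the 7 lists and 1 diamond per tested Rgs probe set. Points of list genes called by limma at an adjusted p under 0.05 are filled. Diamonds are open whether called or not, and Rgs3 1367957_at was called under siRNA 3488 (limma adjusted p = 0.0425). Filled points stand in the siRNA 3488 panel only (10 of 67 genes). Of all tested probe sets 15.6% were called under siRNA 3488 and 1.03% under siRNA 2600. The Rgs5 diamond lies at 0.81 on the left and 1.52 on the right.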

How the data were processed

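Per the labels' protocols, total RNA (5 ug) of NRK-52E cultures was made into biotin-labelled cRNA and hybridised to 1 array per culture. The deposited unit is intensity, 1 linear signal per probe set, and the submitters' processing notes name GCOS 1.4. How background, summary and scaling were set is not given in the labels. Gene symbols came from the platform annotation, and all member symbols matched the RefSeq table (GRCr8) by Entrez identifier.

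After a floor of 1, signals were taken to log2. Without the 57 control probe sets, the upper 60% of the others by mean log2 signal (18625, above a log2 of 6.09) were tested with limma 3.58.1 in R 4.3.3 (lmFit, eBayes, trend on), adjusted by Benjamini-Hochberg over the whole table, with calls at an adjusted p under 0.05. Single siRNAs came from a fit of 3 groups, both pooled from a fit of 2 groups. p-values measure the spread between cultures of 1 line. The fit was tested on simulated data. A first simulation, with each probe set's raw spread as noise, recovered fewer changed probe sets than the level set for it, and the noise was then changed to limma's moderated spread, under which the level was met. That noise is the model limma itself assumes, so the second simulation is the easier one and says nothing of recovery for probe sets with a large raw spread. A later change of its random seed moved the recovery of the smaller changes. Lists use the brightest tested probe set of a gene. For each list, the called genes with the lowest adjusted p were named, at most 4 each way; for Rgs5, the 6 genes most correlated with it, leaving out provisional LOC and RGD symbols. Members and lists were chosen with earlier results of these data known. The alternatives were other scalings, filters and floors, no intensity trend, fewer arrays and the replicate number as a block. No sample column was left unused. Protein sequences were not used here.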

Additional observations from a re-analysis of the deposited data

Results flagged for a closer look

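The Rgs2 probe set 1368144_at had both siRNA 3488 arrays below all 3 control arrays and both siRNA 2600 arrays above them, with log2 changes of -0.23 with siRNA 3488 and 0.19 with siRNA 2600. The difference between the siRNAs was not tested. None of the 15 member probe sets had a single array far from the rest among the 4 siRNA arrays, and groups of 2 and 3 arrays are too small for that check.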

How the results depend on the processing

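Among alternatives, the Rgs5 log2 change stayed above 0 in all fits that held it. With an offset of 32 before log2 it was 0.65 with siRNA 3488 and 1.28 with siRNA 2600. Leaving out 1 array gave 0.69 to 0.89 with siRNA 3488, 1.41 to 1.60 with siRNA 2600 and 1.03 to 1.29 with both pooled. The upper 40% of probe sets left 5 member probe sets, of Rgs2, Rgs3, Rgs10 and Rgs19, so Rgs5 has no value there. The count of members other than Rgs5 called with siRNA 3488 was 1 as reported, 2 after cyclic loess, median centring or quantile normalization, 0 without the filter, without an intensity trend or with the replicate block, and 0 to 1 with 1 array left out. The G protein pathway count with siRNA 3488 was 10 as reported, 6 without the filter, 1 without an intensity trend, 7 with the replicate block, and 1 to 12 with 1 array left out. For both siRNAs pooled it was 0 to 2 with 1 array left out.

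Changes under siRNA 3488 that turned sign with 1 array left out, none of them called, were Rgs4 1368505_at (-0.0644 to 0.335, negative without siRNA 3488 replicate 1), Rgs12 1387066_a_at (-0.00448 to 0.261, negative without siRNA 3488 replicate 2) and Rgs14 1369045_at (-0.0573 to 0.852, negative without scrambled control replicate 1). The cause was not tested. Under siRNA 2600, where members have no test, leaving out 1 array gave -0.14 to 0.84 for Rgs14, 0.06 to 0.46 for Rgs12 1378680_at, 0.25 to 0.73 for Rgs4 1368505_at and 0.05 to 0.28 for Rgs19. Without the filter, without an intensity trend or with an array of the other siRNA left out, the log2 change for a single siRNA is the same by construction, so those alternatives bear only on the p-values. The labels do not say that a replicate number marks a shared batch. Same-numbered arrays of different groups had correlations of their deviations from the group means between -0.05 and 0.16. In a group of 2 arrays the deviations mirror each other, so these are not separate pairs and cannot settle whether replicate numbers were paired. Array calls of presence were not used here, so signals near the low end have no stated detection limit.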
